A study of Mus musculus with 5 samples.

Results

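The steroid and thyroid hormone receptors are ligand-activated transcription factors, and 6 of their genes were followed here among the 40624 genes of the deposited table: the estrogen receptor gene Esr1, the progesterone receptor gene Pgr, the glucocorticoid receptor gene Nr3c1, the mineralocorticoid receptor gene Nr3c2, and the thyroid hormone receptor genes Thra and Thrb. They were found by gene symbol, with 1 row each. The group was chosen by the measured counts of Esr1, which were much higher in mutant atria, so the difference of Esr1 between the groups is given as a description, with no test. The other receptors were taken for their family, with earlier results of these data known.

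RNA came from atria of C57BL/6 mice at postnatal day 1. Mutant atria (SLN-Cre; Nkx2-5-flox/flox, replicates 5 and 7) had both alleles of the cardiac homeobox gene Nkx2-5 floxed, and control atria (SLN-Cre; Nkx2-5-flox/+, replicates 2, 4 and 6) had 1 floxed allele. All 5 libraries thus came from atria with the Cre recombinase, expressed from the locus of sarcolipin, a calcium pump regulator of atrial myocytes, so the deletion was aimed at these cells. The labels do not say whether a library came from 1 animal or from a pool, so p-values measure only the spread between these libraries. Libraries held 69648013 to 78841494 gene counts in mutant and 58501214 to 60899334 in control atria. Nkx2-5 itself stood at 5.79 and 5.21 CPM (counts scaled to the depth of the library) in mutants 5 and 7, against 76.8, 72.1 and 71.3 CPM in controls 2, 4 and 6. Both groups mixed the sexes. Mutant 5 and control 4 had 5870 and 4739 counts of the Y-linked gene Ddx3y, and the other libraries had at most 3.

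Receptors of this family share a zinc finger domain that binds DNA and a domain that binds the hormone. The steroid receptors wait in complexes with heat shock chaperones and, with hormone, bind DNA as pairs. The thyroid hormone receptors sit on DNA with a retinoid X receptor and switch between corepressors and coactivators. In the heart, thyroid hormone drives the change of contractile genes around birth, and the rise of glucocorticoids before birth is part of the maturation of the myocardium.

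Because Nkx2-5 is a DNA-binding factor and Esr1 is the receptor with the large difference, the sequences before the annotated start sites of Esr1 are shown. RefSeq (GRCm38.p6) gives Esr1 a window at each of 2 start sites, both on the plus strand of chromosome 10, and the 250 bases before each start are printed with matches to the Nkx2-5 binding motif TNAAGTG, read on either strand, in capitals.
Esr1 window 1, chr10:4611739-4611988: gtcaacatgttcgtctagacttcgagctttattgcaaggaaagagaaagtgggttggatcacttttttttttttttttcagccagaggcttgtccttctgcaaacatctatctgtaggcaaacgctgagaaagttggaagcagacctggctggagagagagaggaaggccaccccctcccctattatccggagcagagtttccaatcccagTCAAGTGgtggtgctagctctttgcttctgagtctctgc
Esr1 window 2, chr10:4709908-4710157: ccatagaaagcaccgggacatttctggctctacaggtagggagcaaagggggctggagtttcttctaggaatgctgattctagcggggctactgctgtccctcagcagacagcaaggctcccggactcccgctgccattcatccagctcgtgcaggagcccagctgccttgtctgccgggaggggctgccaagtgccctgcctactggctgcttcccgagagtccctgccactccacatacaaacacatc
Window 1 holds 1 match, TCAAGTG on the plus strand, whose first base lies 39 bases before the start site, and window 2 holds none. The motif was found in 10.1% of all 32851 windows of this length, so a match is common. By GENCODE vM21, all 250 bases of window 1 also lie in annotated exons of Esr1, and 3 bases of window 2 are exonic. The palindromic estrogen response element, with 3 free bases between its arms and present in 0.0639% of all windows, was found in neither.

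RefSeq windows were at hand for 4 of the 6 genes, Esr1, Pgr, Nr3c2 and Thrb. The Nkx2-5 motif had no match in the single windows of Pgr and Nr3c2 or in both windows of Thrb. Window 1 of Thrb holds 1 copy of AGGTCA, the hexamer that thyroid hormone receptors recognise, which 14.0% of all windows hold on either strand. Window 2 of Thrb holds 2 copies of TGTTCT, 1 on each strand, the hexamer of steroid receptor elements, which 16.1% of all windows hold. The full glucocorticoid response element, present in 0.387% of all windows, was in no window of these 4 genes. These matches describe the letters and were not tested as binding sites.

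Esr1 was higher in both mutant libraries than in any control. Its counts were 726 and 708 in mutants 5 and 7, against 157, 179 and 87 in controls 2, 4 and 6. Scaled for depth, Esr1 had 9.30 and 10.4 CPM in the mutants, against 2.66, 3.01 and 1.41 CPM in the controls. The groups did not overlap, and the lowest mutant library was above the highest control library by a wide margin. Means were 9.84 ± 0.755 CPM in mutant atria (SD, n = 2) and 2.36 ± 0.839 CPM in control atria (SD, n = 3), a ratio of 4.17. The fitted log2 fold change, mutant over control, was 2.06 ± 0.29 (SE). It lay between 1.80 and 2.27 whichever library was left out, and it was lowest without control 6, the control with the least Esr1.

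Because the groups did not overlap, the order within each sex had to be the same and adds no support. Male mutant 5 had 9.30 CPM of Esr1 against 3.01 CPM in male control 4. Female mutant 7 had 10.4 CPM against 2.66 and 1.41 CPM in the female controls 2 and 6. With sex as a covariate the fitted log2 fold change was 2.04 ± 0.31 (SE). The controls differed among themselves by a factor of 2.13 for Esr1, while they differed by 1.43 for Nr3c2, 1.17 for Thrb and 1.07 for both Thra and Nr3c1.

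The table gives Esr1 (ENSMUSG00000019768) on the minus strand of chromosome 10, at 5345118 to 5634157 in mm9, whereas GENCODE vM21, on the later build GRCm38, has it on the plus strand. The table also gives it a length of 18689 bases, more than its 13661 merged exonic bases in GENCODE vM21, and the authors' RPKM values, pooled by group, rest on that length. They were 0.480 in mutant and 0.117 in control atria in the deposited table. GENCODE vM21 shows no other gene sharing exonic bases with Esr1.

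Pgr (ENSMUSG00000031870; chromosome 9, 8900468 to 8965138, mm9), a classical estrogen-induced gene in the uterus and breast, was at the limit of detection in every library. It had 0 and 1 counts in mutants 5 and 7, against 0, 1 and 1 counts in controls 2, 4 and 6. A count of 0 allows up to 3 counts, or 0.0384 to 0.0439 CPM in mutant and 0.0487 to 0.0509 CPM in control libraries, by counting error only. No fold change is therefore given for Pgr, and it did not pass the filter on low counts. The remaining 5 genes passed it.

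Apart from Esr1, 0 of the 4 tested receptor genes passed the test, at a Benjamini-Hochberg adjusted p under 0.05 by edgeR's quasi-likelihood test, whereas 6.58% of all 17835 tested genes passed, 3.02% higher and 3.57% lower in mutants. The same 0 of 4 passed with DESeq2 and with limma-voom, and 0 of 4 reached an unadjusted p under 0.05 in edgeR. Mutant and control values did not overlap for 2 of the 4, Nr3c1 and Thrb, against 37.9% of all tested genes. Nr3c1 was the higher one, as were 18.6% of all tested genes, and Thrb the lower one, as were 19.2%. A p that misses the threshold does not show that the groups were alike, so the size and error of each difference follow.

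**Figure D1:**
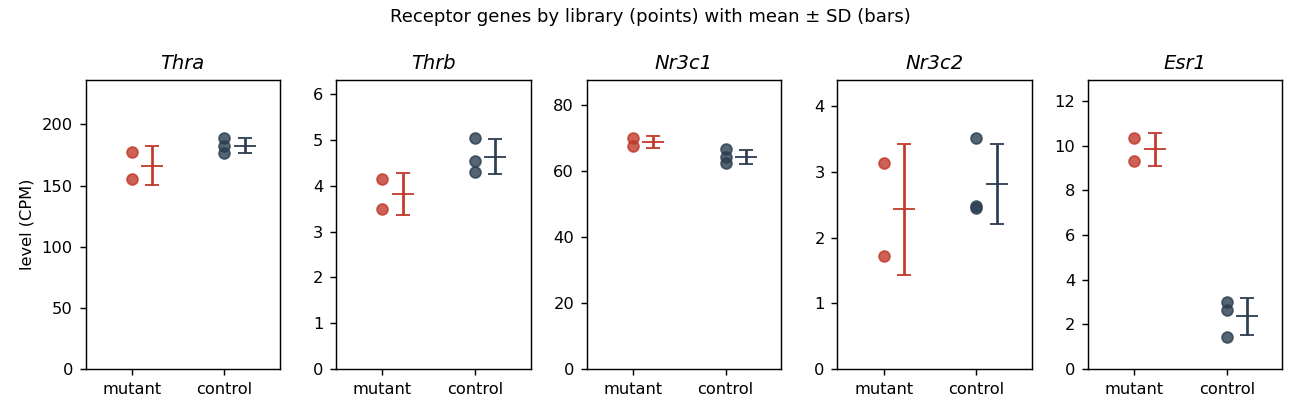
Level of the 5 detected receptor genes in CPM (vertical axis, from 0, scaled per panel) in each mutant and control library (points), with the mean and SD of each group beside them (n = 2 mutant, n = 3 control). Esr1 stands at 9.30 and 10.4 CPM in mutants against 1.41 to 3.01 CPM in controls, and the groups lie close together or overlap for the other genes.

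The glucocorticoid receptor gene Nr3c1 (ENSMUSG00000024431; chromosome 18, 39574136 to 39646886, mm9) varied little between libraries. Its values were 67.7 and 70.2 CPM in mutants 5 and 7, against 64.2, 62.4 and 66.7 CPM in controls 2, 4 and 6. Mutant values were all above control values, though by little. The difference, mutant over control, was 0.10 ± 0.06 on the log2 scale (SE; adjusted p = 0.444, edgeR).

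The mineralocorticoid receptor gene Nr3c2 (ENSMUSG00000031618; chromosome 8, 79432171 to 79766429, mm9), whose product also binds glucocorticoids in heart muscle, was low and varied widely within both groups. Its values were 3.14 and 1.73 CPM in mutants 5 and 7, against 2.46, 2.49 and 3.53 CPM in controls 2, 4 and 6. The mutants lay on both sides of the lower controls, so the groups overlapped. The log2 fold change of -0.21 ± 0.29 (SE) did not pass edgeR's test (adjusted p = 0.753), and it was 0.15 without mutant 7 and -0.71 without mutant 5. Nr3c2 shares 247 exonic bases with Gm10649 on the opposite strand, a gene with at most 3 counts in any library.

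Thra (ENSMUSG00000058756; chromosome 11, 98614900 to 98629839, mm9) encodes the main thyroid hormone receptor of heart muscle. Its values were 177.4 and 155.1 CPM in mutants 5 and 7, against 189.3, 176.6 and 182.3 CPM in controls 2, 4 and 6. Mutant 7 was the lowest library, and mutant 5 lay within the controls. Its log2 fold change was -0.14 ± 0.08 (SE; adjusted p = 0.362, edgeR). Its 3′ end overlaps Nr1d1, the gene of the circadian repressor REV-ERBα, by 263 exonic bases on the opposite strand, and the sources used here do not say if reads were counted by strand. How reads of the shared stretch were counted is therefore not known. Nr1d1 had 1422 and 1328 counts in the mutants, against 1515, 1228 and 1216 in the controls, beside 10506 to 13844 counts of Thra over all libraries. For Nr1d1 the log2 fold change was -0.23 ± 0.12 (SE; adjusted p = 0.335, edgeR).

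Thrb (ENSMUSG00000021779; chromosome 14, 18758152 to 18866180, mm9), the thyroid hormone receptor gene best known from liver, inner ear and pituitary, was low. Its values were 4.15 and 3.50 CPM in mutants 5 and 7, against 5.05, 4.54 and 4.31 CPM in controls 2, 4 and 6. Both mutants were below all controls, mutant 5 by a small step. Its log2 fold change was -0.27 ± 0.16 (SE; adjusted p = 0.372, edgeR).

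Levels of different genes were compared per kilobase of merged exons. Thra was highest, at 36.0 ± 3.42 CPM per kilobase in mutant atria (SD, n = 2) and 39.6 ± 1.38 in control atria (SD, n = 3). It ranked first of the 49 nuclear receptor genes in both groups. Nr3c1 followed, at 8.98 ± 0.231 CPM per kilobase in mutant and 8.38 ± 0.279 in control atria, ranking 7 in mutants and 8 in controls. Thra exceeded Nr3c1 per length by a factor of 3.68 to 4.36 in the mutants and 4.55 to 4.91 in the controls.

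The low receptors changed places between the groups. In mutant atria the order was Esr1 at 0.720 ± 0.0553, Thrb at 0.517 ± 0.0622 and Nr3c2 at 0.376 ± 0.154 CPM per kilobase (SD, n = 2), and the values of Thrb and Nr3c2 overlapped. In control atria it was Thrb at 0.626 ± 0.0518, Nr3c2 at 0.436 ± 0.0939 and Esr1 at 0.173 ± 0.0614 CPM per kilobase (SD, n = 3), with no overlap between neighbours. Per kilobase of the longest coding sequence instead, Esr1 stood above Nr3c2 in the controls too, at 1.31 against 0.957 CPM per coding kilobase. Esr1 ranked 29 of 49 nuclear receptor genes per merged exon length in mutants and 37 in controls.

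Thra and Nr3c1 led their close relatives in every library. Per length, Thra exceeded Thrb by a factor of 68.6 and 71.1 in mutants 5 and 7, against 60.1, 62.4 and 67.9 in controls 2, 4 and 6. Nr3c1 exceeded Nr3c2 by a factor of 18.2 and 34.2 in the mutants, against 22, 21.1 and 15.9 in the controls. For estrogen receptors, Esr2, the gene of the second receptor, stood at 2.37 and 3.03 CPM in the mutants, against 2.36, 2.84 and 1.77 CPM in the controls, and did not pass (log2 fold change 0.22 ± 0.24, adjusted p = 0.676, edgeR). Per merged exon length Esr2 averaged 0.802 in mutants and 0.690 CPM per kilobase in controls. Esr1 thus lay below Esr2 in both groups on that scale, at 0.720 in mutants and 0.173 in controls. Per coding length Esr1 lay above Esr2 in the mutants, at 5.47 against 1.59.

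**Figure D2:**
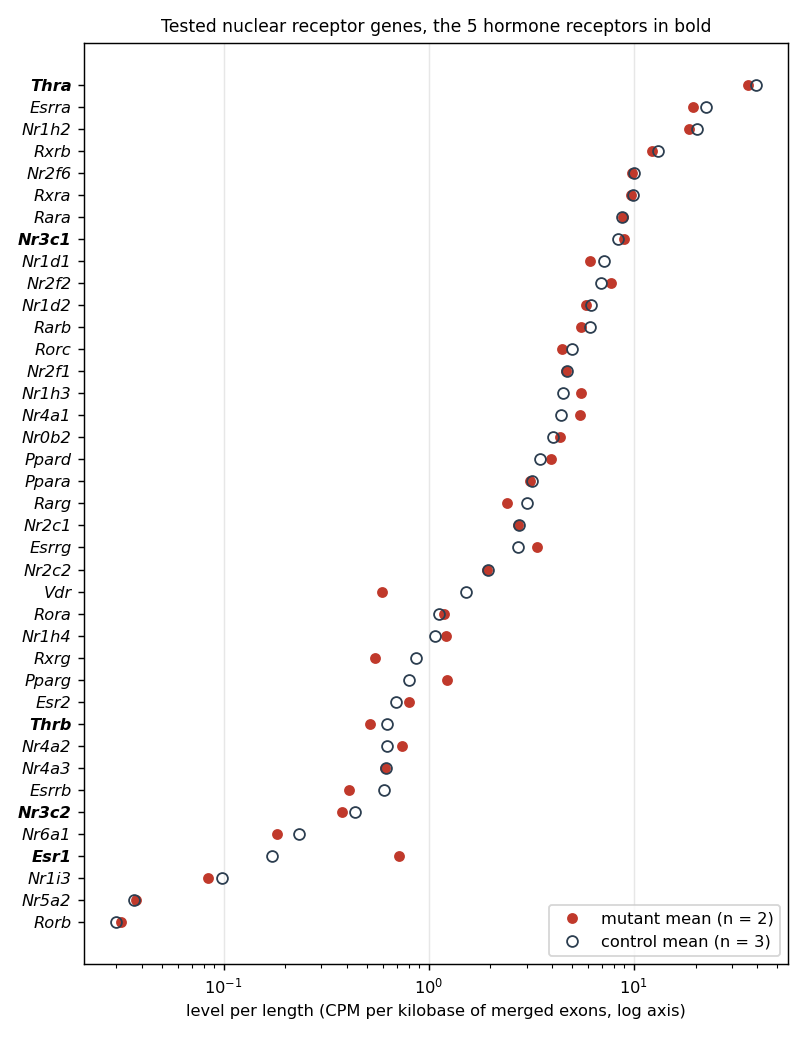
Mean level per length (CPM per kilobase of merged exons, log axis) of tested nuclear receptor genes in mutant atria (filled, n = 2) and control atria (open, n = 3), ordered by the control mean; the 5 detected hormone receptors are in bold. Esr1 stands at 0.720 in mutants against 0.173 in controls, and Vdr stands at 0.591 in mutants against 1.52 in controls.

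The other nuclear receptors were read as the wider family. Of 43, 35 were tested, and 1 fell, 0 rose and 34 did not pass. Over all tested genes 3.57% fell and 3.02% rose. The median log2 fold change of the 35 was -0.03, beside 0.01 over all tested genes, and 9 reached an unadjusted p under 0.05, as did 20.8% of all tested genes, while DESeq2 called 1 higher and 2 lower. The vitamin D receptor gene Vdr was the gene that fell. Its level was 2.79 and 3.88 CPM in mutants 5 and 7, against 8.36, 8.55 and 8.92 CPM in controls 2, 4 and 6. Its log2 fold change was -1.37 ± 0.16 (SE; adjusted p = 0.0026, edgeR), and it passed under all 12 other settings tried. The retinoid X receptor gene Rxra, a partner of the thyroid hormone receptors, stood at 54.5 and 51.3 CPM in the mutants, against 53.7, 51.8 and 56.6 CPM in the controls.

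Enzymes and carriers that set the supply of hormone were examined next. Of 28 such genes 17 were tested, and 3 rose, 0 fell and 14 did not pass; DESeq2 and limma-voom also called 0 lower, and 6 of the 17 reached an unadjusted p under 0.05. Over all tested genes 6.58% passed and 20.8% reached that unadjusted p. Their median log2 fold change was -0.00. Slc7a5, the gene of an amino acid transporter that also carries thyroid hormone, stood at 82.3 and 86.9 CPM in mutants 5 and 7, against 45.9, 43.6 and 46.5 CPM in controls 2, 4 and 6. It rose by 0.90 ± 0.07 (SE) on the log2 scale (adjusted p = 3.52e-04, edgeR). Srd5a1, which converts testosterone to dihydrotestosterone, stood at 6.68 and 6.34 CPM in the mutants, against 3.78, 3.66 and 3.35 CPM in the controls, and rose by 0.86 ± 0.14 on the log2 scale (adjusted p = 0.00865, edgeR). Srd5a1 shares 476 exonic bases with Gm17108 on the same strand, a gene with at most 15 counts.

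The other rise was that of Hsd3b1, an enzyme of steroid synthesis. Its level was 4.83 and 2.55 CPM in the mutants, against 0.967, 0.420 and 0.829 CPM in the controls, with a log2 fold change of 2.32 ± 0.39 (SE; adjusted p = 0.0162, edgeR). The call was lost without control 6 and with sex as a covariate (highest adjusted p = 0.0604, edgeR). Hsd3b1 belongs to a cluster of near-identical genes that can share reads, which leaves its value uncertain. Its relative Hsd3b6 had 210 and 62 counts in the mutants, against 25, 25 and 39 in the controls. Hsd3b2 had 135 and 199 counts in the mutants, against 141, 148 and 114 in the controls, and Hsd3b3 had 23 and 10, against 16, 10 and 15. Hsd3b2 and Hsd3b3 thus overlapped between the groups, whereas Hsd3b6 was higher in both mutants than in any control.

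Several key enzymes were at or near 0. Cyp19a1, the aromatase gene that makes estrogens, had 0 counts in all 5 libraries, and so did Cyp11b2 and Cyp11b1, which make aldosterone and corticosterone. The deiodinase genes Dio1 and Dio3 had at most 1 count. Dio2, the deiodinase gene that activates thyroid hormone, stood at 1.09 and 1.10 CPM in the mutants, against 1.24, 1.14 and 1.53 CPM in the controls, and did not pass. Hsd11b2, which inactivates glucocorticoids and so protects the mineralocorticoid receptor, stood at 0.179 and 0.147 CPM in the mutants, against 0.373, 0.387 and 0.585 CPM in the controls. It did not pass (log2 fold change -1.45 ± 0.44, adjusted p = 0.0967, edgeR). Hsd11b1, which regenerates active glucocorticoids, stood at 2.40 and 2.86 CPM in the mutants, against 2.31, 2.42 and 1.77 CPM in the controls, and did not pass.

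Chaperones and coregulators of the receptors gave no call. All 25 were tested, and 0 passed in edgeR, where 2 reached an unadjusted p under 0.05; DESeq2 called 1 higher and 0 lower, and limma-voom called 0. Their median log2 fold change was 0.04. Over all tested genes 6.58% passed and 20.8% reached that unadjusted p. Hsp90aa1, a heat shock chaperone that holds steroid receptors ready for hormone, stood at 356 and 387 CPM in mutants, against 303, 319 and 317 CPM in controls (log2 fold change 0.25 ± 0.07, adjusted p = 0.0833, edgeR). The corepressor gene Ncor1 stood at 127 and 140 CPM in mutants, against 129, 124 and 134 CPM in controls, and the groups overlapped. Ncor1 shares 82 exonic bases with Pigl on the opposite strand.

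Genes known to respond to each hormone in other tissues were then counted. Of 17 tested estrogen and progesterone target genes, 15 did not pass, 1 rose and 1 fell. Their median log2 fold change was 0.13. An unadjusted p under 0.05 in edgeR was reached by 7 of the 17. Over all tested genes 6.58% passed and 20.8% reached that unadjusted p. Stat5a, a signal transducer of prolactin, stood at 12.9 and 11.5 CPM in mutants, against 18.1, 18.1 and 17.7 CPM in controls, and fell by 0.56 ± 0.09 (SE) on the log2 scale (adjusted p = 0.00982, edgeR). Stat5a lies beside its near-identical relative Stat5b, whose reads may be hard to separate, and shares 72 exonic bases with Stat3 on the opposite strand. The chemokine gene Cxcl12 rose by 0.45 ± 0.11 (adjusted p = 0.0497, edgeR), a call that 8 of the 12 other settings did not keep. Greb1, among the most estrogen-responsive genes of breast cancer cells, stood at 0.179 and 0.674 CPM in mutants, against 0.237, 0.302 and 0.195 CPM in controls, and did not pass (adjusted p = 0.504, edgeR). The estrogen-induced gene Tff1 had 0 counts in all libraries. Mutant and control values did not overlap for 5 of the 17 on the higher side, against 18.6% of all tested genes. On the lower side they did not overlap for 3, against 19.2%. The uncalled genes with the smallest p were C3, Myc and Ltf. C3 was lower (log2 fold change -1.05 ± 0.23, adjusted p = 0.0599, edgeR). Myc was higher (0.44 ± 0.12, adjusted p = 0.0668, edgeR). Ltf had 20 and 43 counts in mutants, against 4, 0 and 9 in controls (adjusted p = 0.127, edgeR).

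Of 23 tested glucocorticoid and mineralocorticoid target genes, 21 did not pass, 1 rose and 1 fell. An unadjusted p under 0.05 in edgeR was reached by 7 of the 23. Over all tested genes 6.58% passed and 20.8% reached that unadjusted p. The median log2 fold change of the 23 was 0.06. The kinase gene Sgk1, a target of both receptors, stood at 56.1 and 54.4 CPM in mutants, against 37.3, 40.5 and 43.0 CPM in controls, and rose by 0.46 ± 0.08 (SE) on the log2 scale (adjusted p = 0.0133, edgeR). Tsc22d3, which encodes the glucocorticoid-induced leucine zipper, stood at 82.2 and 64.2 CPM in mutants, against 107, 97.0 and 108 CPM in controls, and fell by 0.51 ± 0.11 (adjusted p = 0.0352, edgeR). These 2 targets of 1 hormone class went in opposite directions. The call of Sgk1 did not hold when control 2 or control 4 was left out (adjusted p up to 0.0617, edgeR), and Tsc22d3 without control 2, control 4 or control 6 and with sex as a covariate (highest adjusted p = 0.119, edgeR). Per1 had a log2 fold change of 0.00 ± 0.13 and Fkbp5 of 0.20 ± 0.09, and neither passed.

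Of 17 tested thyroid hormone target genes, 15 did not pass, 1 rose and 1 fell. Over these 17 the median log2 fold change was -0.07. Without the adjustment 11 of the 17 reached p under 0.05 in edgeR, against 20.8% of all tested genes, of which 6.58% passed. Mbp, the myelin basic protein gene that thyroid hormone induces in brain, stood at 22.3 and 19.2 CPM in mutants, against 37.4, 40.1 and 42.3 CPM in controls, and fell by 0.94 ± 0.10 (SE) on the log2 scale (adjusted p = 0.00126, edgeR). The pacemaker channel gene Hcn2 stood at 1.77 and 1.89 CPM in mutants, against 1.10, 0.874 and 0.715 CPM in controls, and its rise of 1.03 ± 0.25 (adjusted p = 0.0496, edgeR) was lost under 8 of the 12 other settings. Other known target genes stood just short of the threshold. Hr stood at 1.67 and 1.47 CPM in mutants, against 3.15, 2.59 and 2.47 CPM in controls (adjusted p = 0.054, edgeR), and Klf9 at 19.6 and 16.7 CPM, against 26.0, 22.3 and 23.4 CPM (adjusted p = 0.0581, edgeR).

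Contractile and calcium-handling genes that thyroid hormone controls in the heart gave no call in edgeR. Myh6, the myosin gene that thyroid hormone raises in the mouse heart, had a log2 fold change of 0.26 ± 0.10 (SE; adjusted p = 0.161, edgeR). Myh7, the myosin gene it lowers there, had one of 0.24 ± 0.11 (adjusted p = 0.236, edgeR). The calcium pump gene Atp2a2 had one of 0.23 ± 0.08 (adjusted p = 0.143, edgeR).

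**Figure D3:**
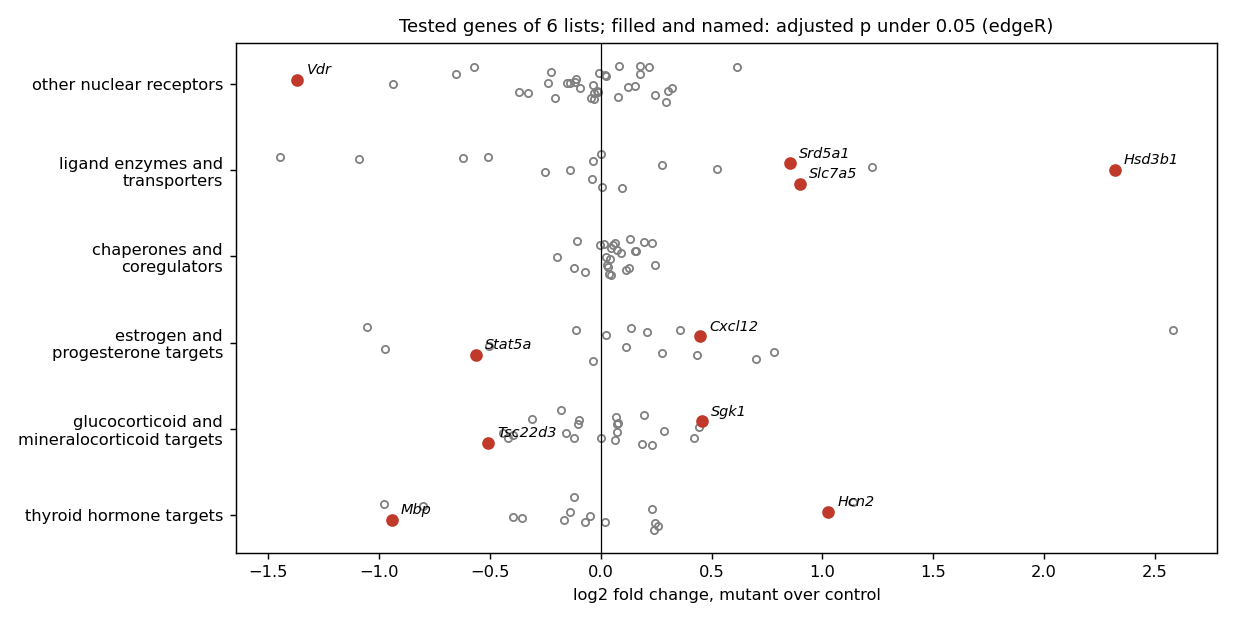
Log2 fold change, mutant over control, of each tested gene (points, spread vertically for legibility) in 6 lists, with called genes filled and named. Most points lie within 0.5 of 0, and called genes stand on both sides, from Vdr at -1.37 to Hsd3b1 at 2.32.

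The genes nearest to Esr1 in pattern were sought among the 14266 tested genes whose mean log2 CPM was 0 or more, by the root mean square distance of log2 CPM, centred per gene, over the 5 libraries. Lnx1, a ubiquitin ligase gene, was nearest, at a distance of 0.16 log2 units, followed by Klhdc8a at 0.24 and Coch at 0.25. Lnx1 stood at 9.80 and 9.81 CPM in mutants 5 and 7, against 2.99, 3.01 and 1.14 CPM in controls 2, 4 and 6. Klhdc8a stood at 11.4 and 13.7 CPM in mutants 5 and 7, against 5.22, 4.47 and 2.39 CPM in controls 2, 4 and 6. Coch, an extracellular matrix gene, stood at 5.15 and 6.36 CPM in mutants, against 1.22, 1.85 and 0.536 CPM in controls. As with Esr1, control 6 was the lowest library for all 3. The 3 genes were picked for likeness to Esr1 over these same 5 libraries, so this shared pattern follows from the choice. For Nr3c1 the nearest gene was Acbd3, at 0.00814 log2 units, for Thra Eif3h at 0.00806, for Thrb 1110031I02Rik at 0.0136 and for Nr3c2 8430429K09Rik at 0.103.

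**Figure D4:**
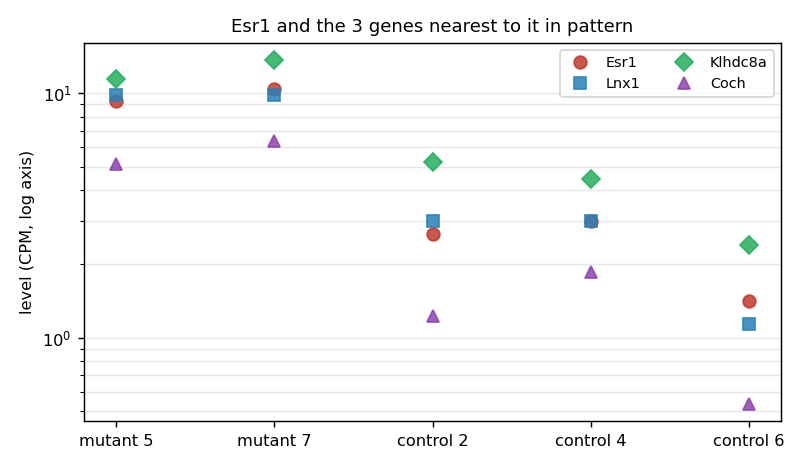
Level (CPM, log axis) of Esr1, Lnx1, Klhdc8a and Coch in each library (horizontal axis). All 4 genes are high in both mutants and lowest in control 6, where Esr1 stands at 1.41 CPM. The other genes were picked for likeness to Esr1 over these libraries, so the shared pattern follows from the choice.

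Marker lists of the cell types of the atrium were set beside Esr1, because in bulk tissue more cells of a type and more RNA per cell cannot be told apart. Of the 9 smooth muscle and pericyte markers, all tested, Acta2 and Abcc9 rose and 7 did not pass, and the call of Abcc9 was lost without mutant 7 (adjusted p = 0.0588, edgeR). All 9 log2 fold changes were positive, as were 9 of 10 in the endothelial list and 6 of 6 in the leukocyte list. Over all tested genes 3.02% rose and 3.57% fell, and the median log2 fold change was 0.01. The summed level of the 9 was 2043 to 2373 CPM in mutants and 801 to 958 CPM in controls, and without Acta2 it was 680 to 799 CPM in mutants and 417 to 525 CPM in controls. The sum without Acta2 was computed after the data were seen. The smooth muscle actin gene Acta2, which young heart muscle also uses, stood at 1693 and 1244 CPM in mutants, against 435, 432 and 366 CPM in controls, and rose by 1.84 ± 0.14 (SE) on the log2 scale (adjusted p = 9.33e-04, edgeR). Myh11, the more specific smooth muscle myosin gene, did not pass (adjusted p = 0.188, edgeR). It stood at 29.7 and 27.7 CPM in mutants, against 6.51, 9.14 and 2.03 CPM in controls. Mutant and control values did not overlap for 5 of the 9, all higher in mutants, against 18.6% of all tested genes. Those of Tagln, Cnn1, Kcnj8 and Cspg4 overlapped.

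The counts of the other lists are read beside all tested genes, of which 3.02% rose, 3.57% fell and 20.8% reached an unadjusted p under 0.05. Of 10 epicardial markers 8 fell, with a summed level of 851 to 884 CPM in mutants and 1241 to 1424 CPM in controls. Of 10 fibroblast markers 4 fell and 6 did not pass. The fibroblast sum was 8870 to 8965 CPM in mutants and 11170 to 12720 CPM in controls. Col3a1, 1 of the 4 fibroblast markers that fell, lost its call under 5 of the 12 other settings. Of 10 endothelial markers 1 rose, Tie1, a call lost under 5 of the 12 other settings, with 2099 to 2561 CPM in mutants and 1932 to 2086 CPM in controls for the sum. Of 6 tested leukocyte markers 1 rose, Emr1, a call lost under 7 of the 12 other settings, each left-out library included, with 147 to 151 CPM in mutants and 118 to 137 CPM in controls for the sum. Of 8 tested neuron and Schwann cell markers 0 passed in edgeR, 2 reached an unadjusted p under 0.05 and DESeq2 called 1 higher and 1 lower, with 24.0 to 26.2 CPM in mutants and 19.3 to 28.8 CPM in controls. The T cell gene Cd3e had at most 1 count in any library. Of 10 cardiomyocyte markers 1 fell, Nppa, and the sum was 53280 to 57420 CPM in mutants and 55230 to 58070 CPM in controls. That sum includes Nppa, at 848.5 and 1194 CPM in mutants against 5281 to 6769 CPM in controls. A sum without Nppa was not computed. Values did not overlap for 3 markers, higher in mutants, and 2, lower, against 18.6% and 19.2% of all tested genes. The part of cell composition in the level of Esr1, or of any receptor here, was not tested.

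**Figure D5:**
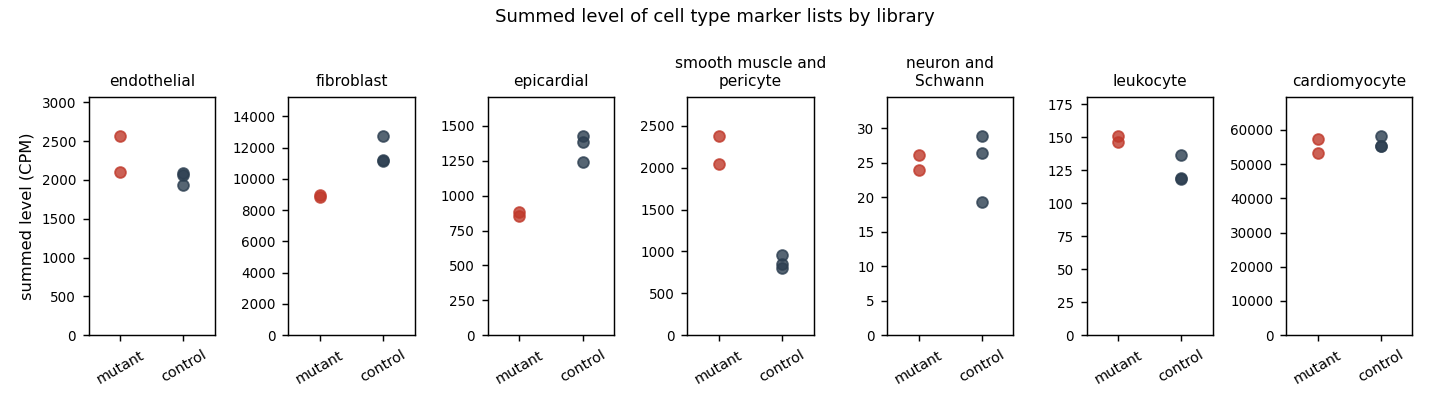
Summed level (CPM, from 0, scaled per panel) of each cell type marker list in each mutant and control library (points). The smooth muscle and pericyte sum is 2043 to 2373 CPM in mutants against 801 to 958 CPM in controls, of which Acta2 gives 1244 to 1693 CPM in mutants and 366 to 435 CPM in controls, while the epicardial and fibroblast sums are lower in mutants.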

How the data were processed

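RNA-seq was done on atrial tissue; per the labels' protocols, 250 ng of total RNA went into each TruSeq library. Raw read counts per gene were deposited by the authors for 5 libraries, and the same table holds RPKM values that the authors pooled to 1 value per group. Per the submitters' processing notes, the build named is mm9 and the tools named are TopHat2 2.0.4, HTSeq 0.5.4p3 and DESeq, with no role stated for each. The no_feature and ambiguous entries, 3.97% to 6.03% and 2.31% to 3.18% of counts, were left out of totals and tests.

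Counts were fitted with edgeR 4.0.16 (filterByExpr at 10 counts and 15 in total, TMM scaling, robust quasi-likelihood test, two-sided, prior count 0.125) on all 5 libraries, with Benjamini-Hochberg adjustment across the 17835 tested genes. Standard errors were taken as the log2 fold change over the root of the F statistic. With 2 against 3 libraries precision rests on the spread shared between genes. Other settings were DESeq2 1.42.0, limma-voom (limma 3.58.1), 2 other scalings, 2 other filters, sex as a covariate and leaving out each library. Sex was read from Xist and Ddx3y. Merged exon and coding lengths and shared exonic bases came from GENCODE vM21 by gene identifier, and promoter windows from RefSeq (GRCm38.p6); no coordinate was moved between builds.

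The receptor genes and the gene lists were chosen with earlier results of these data known. Named genes were Nkx2-5, the receptors, genes sharing exonic bases with them, the 2 nearest protein-coding genes on each side, up to 4 called genes per list with the smallest p, hormone enzymes and transporters needed for their role, and the 3 genes nearest in pattern to each receptor. Genes named outside this rule, such as Esr2, Rxra, Hsp90aa1, Ncor1, Greb1, Tff1, Per1, Fkbp5, Hr, Klf9, Myh6, Myh7, Atp2a2, Myh11 and Hsd3b6, were chosen after their values were seen, for their known roles. C3, Myc and Ltf were named as the uncalled estrogen and progesterone targets with the smallest p. The estrogen target gene Areg and others with few counts did not pass the filter, and 5 listed symbols of the hormone pathway lists and 1 marker symbol were not matched in the table and not analysed here. The result of 1 other nuclear receptor gene is not reported here.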

Additional observations from a re-analysis of the deposited data

How the results depend on the processing

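The log2 fold change of Esr1 was 1.97 to 2.15 without mutant 7, mutant 5 or control 2, 2.27 without control 4 and 1.80 without control 6, and 2.02 to 2.13 under the other scalings, filters and tools. None of Nr3c1, Nr3c2, Thra and Thrb passed under any of the 12 other settings. The log2 fold change of Nr3c2 ranged from -0.71 to 0.15 when 1 library was left out and changed sign without mutant 7 only; the cause was not tested. Over all genes, 538 rose and 636 fell. With DESeq2 the counts were 960 and 1044, and at a threshold of 0.01 they were 157 and 234. Leaving out 1 library gave 203 to 910 genes higher and 306 to 804 lower, with the fewest higher without control 4, the fewest lower without control 2 and the most of both without mutant 5. Mutant 7 is then the lone mutant and is assumed to vary like the controls. DESeq2 called 2 and 2 estrogen and progesterone targets higher and lower, 2 and 3 glucocorticoid and mineralocorticoid targets, 2 and 4 thyroid hormone targets, and 7 fibroblast markers lower; limma-voom called 0 and 2 of the first and of the third of these lists. Per coding length, Esr1 stood at 5.47 in mutant and 1.31 CPM per kilobase in control atria. No paired analysis was possible because the groups share no replicate number. Receptors at a few CPM, such as Nr3c2 with 118 to 245 counts, are limited by the small number of libraries. Nr3c2 had a within-group log2 SD of 0.421, against 0.138 for Thrb, which had 239 to 324 counts. Pgr, with at most 1 count a library, gives no difference that this depth could show.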

Other observations

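The protein-coding genes beside each receptor were read from the order of the deposited table, whose positions for protein-coding genes are coding spans. Next to Esr1, Syne1, a gene of the nuclear envelope 20.6 kilobases away, stood at 48.3 and 63.7 CPM in mutants 5 and 7, against 69.0, 69.4 and 72.7 CPM in controls 2, 4 and 6. Syne1 did not pass (log2 fold change -0.33 ± 0.11, adjusted p = 0.139, edgeR). Myct1, 592 kilobases away on the same side, stood at 18.7 and 24.7 CPM in mutants, against 15.2, 13.2 and 11.5 CPM in controls, and rose by 0.71 ± 0.15 on the log2 scale (adjusted p = 0.0361, edgeR). The call of Myct1 was lost without mutant 7, control 4 or control 6 (highest adjusted p = 0.129, edgeR). On the other side, 1700052N19Rik stood at 15.63 and 14.95 CPM in mutants, against 15.7, 14.5 and 13.3 CPM in controls, and did not pass, while Gm221 had at most 6 counts. Around the other receptors no tested neighbour passed, the lowest adjusted p being 0.235 in edgeR, for Arhgap42 beside Pgr.

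Thrb lies in a stretch with 2 more nuclear receptor genes as its nearest protein-coding neighbours. Rarb, a retinoic acid receptor gene, stood at 29.7 and 28.8 CPM in mutants, against 32.7, 29.5 and 34.4 CPM in controls. Nr1d2, the gene of a circadian repressor, stood at 31.8 and 31.1 CPM in mutants, against 36.8, 29.7 and 34.2 CPM in controls. Neither passed edgeR's test, and Rarb shares 1793 exonic bases with Top2b on the opposite strand. Fgf1, a growth factor gene near Nr3c1, varied widely within each group, at 10.8 and 4.70 CPM in mutants, against 15.5, 3.45 and 21.4 CPM in controls. The low values fell in mutant 7 and control 4, which differ in sex.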
